A study of Mus musculus with 9 samples.

Results

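The 4 FGF receptor genes Fgfr1, Fgfr2, Fgfr3 and Fgfr4 and both genes of the extracellular heparan sulfatases, Sulf1 and Sulf2, were followed in cells sorted from mouse forelimb buds at E10.5, in days of embryonic development. They were taken by gene symbol: a probe set counted where the array annotation gave it 1 symbol and that symbol was one of the 6. This found 19 of the 45037 probe sets tested, and all 6 genes among the 18193 genes measured. The first group was PAX3-FKHR GFP+, the GFP-positive cells of Pax3PAX3-FKHR/GFP embryos, in which one Pax3 allele encodes GFP and the other, once opened by PGK-Cre from the mother, the fusion of the Pax3 DNA-binding domain with the activation domain of FKHR, so that no intact Pax3 allele is left. The second was control GFP+, the GFP-positive cells of Pax3GFP/+ embryos, which keep 1 intact Pax3 allele, and the third was GFP-, the GFP-negative cells of the forelimb bud. Both GFP-positive groups therefore lack at least 1 intact Pax3 allele, and both express the reporter from the Pax3 locus. PGK-Cre is active throughout the embryo, while PAX3-FKHR is made only where Pax3 is transcribed. The genotype of the embryos behind the GFP- cells is not in the labels and is given in more than one way in the text of the study, and whether the control embryos carried Cre is not given in the sources used here. Each group had 3 arrays, each of RNA from limb buds pooled from many embryos, and this number limits the precision of every value below.

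FGF receptors are receptor tyrosine kinases that bind FGF together with heparan sulfate, the sulfated sugar chain of cell surface and matrix proteoglycans. Ligand binding pairs the receptors and starts the Ras and MAP kinase cascade, which in turn induces feedback inhibitors such as the Sprouty proteins. In the limb bud, FGFs pass between ectoderm and mesenchyme and drive outgrowth, with Fgfr1 and Fgfr2 as the main mesenchymal and ectodermal receptors. Fgfr3 is known for restraining cartilage growth, and Fgfr4 marks embryonic muscle progenitors. Sulf1 and Sulf2 are secreted enzymes that take sulfate groups off heparan sulfate outside the cell and so change how it binds FGF, Wnt and other ligands.

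The 6 genes lie on 6 chromosomes of the mouse genome (GRCm38.p6): Sulf1 at chr1:12692197-12861192, Sulf2 at chr2:166073899-166155683, Fgfr3 at chr5:33721724-33737068, Fgfr2 at chr7:130162451-130266808, Fgfr1 at chr8:25518759-25575718 and Fgfr4 at chr13:55152818-55168759. The 250 bases before the start of Fgfr4 (chr13:55152568-55152817, plus strand) and of Fgfr2 (chr7:130266809-130267058, minus strand) are shown, from RefSeq, because Fgfr4 had the highest log2 fold change of the 6 genes against GFP- cells in both GFP-positive groups and Fgfr2 was the one called lower in both. Capitals mark matches to CANNTG, the E-box letters that bHLH factors such as Myf5 can bind, which read the same on both strands.
Fgfr4: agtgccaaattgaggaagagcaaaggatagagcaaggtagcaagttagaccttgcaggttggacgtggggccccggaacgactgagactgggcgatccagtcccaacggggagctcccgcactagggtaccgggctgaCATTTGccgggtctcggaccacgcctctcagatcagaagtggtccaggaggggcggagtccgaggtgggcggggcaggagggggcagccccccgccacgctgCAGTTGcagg
Fgfr2: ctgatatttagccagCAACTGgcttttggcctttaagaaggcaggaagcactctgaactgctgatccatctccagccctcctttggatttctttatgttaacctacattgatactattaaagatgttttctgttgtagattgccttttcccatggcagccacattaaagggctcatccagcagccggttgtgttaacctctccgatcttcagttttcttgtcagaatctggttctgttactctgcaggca
The Fgfr4 stretch held 2 CANNTG matches and the Fgfr2 stretch 1, where 66.2% of the 32851 RefSeq mouse promoters of the same length held at least 1. The letters ATTA, the core of many homeodomain sites, were counted on both strands, with 0 matches before Fgfr4 and 2 before Fgfr2, and in 54.9% of all promoters. GTCAC, part of the sequence a paired domain reads, occurred on neither strand of the stretches shown and in 39.8% of all promoters. These matches describe the letters of this window and no binding was measured. No match to one of these motifs overlapped a match to another in the stretches shown. RefSeq starts were matched for 4 of the 6 genes, Fgfr2, Fgfr3, Fgfr4 and Sulf2.

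Values are given as log2 of the RMA signal, so that a difference of 1 is a doubling, and levels of different probe sets are not set against each other. A difference was called where the limma fit over all 9 arrays gave a Benjamini-Hochberg adjusted p under 0.05 over the 45037 probe sets and a log2 fold change of at least 0.5 in either direction. That fit did not pair arrays by replicate number. Replicate arrays correlated between 0.978 and 0.993. Pax3 itself averaged 7.10 ± 0.25 in PAX3-FKHR GFP+ and 9.70 ± 0.67 in control GFP+ (SD, n = 3 each), and the part of the transcript that its probe set reads is not given in the sources used here. The muscle progenitor list followed the sort, with 11 of 11 genes higher in PAX3-FKHR GFP+ than in GFP- and 11 of 11 higher in control GFP+ than in GFP-, while 12 of 12 and 11 of 12 limb mesenchyme genes were lower in the same comparisons. Other cell types moved with the sort too: 4 of 7 neural crest and glia genes and 4 of 9 neural tube and neuron genes were higher in PAX3-FKHR GFP+ than in GFP-, and 4 and 5 were higher in control GFP+ than in GFP-, while Tfap2b of the neural crest and glia list was lower in both (-1.10 in PAX3-FKHR GFP+ and -0.98 in control GFP+). In the same 2 comparisons 3 of 12 limb ectoderm genes were lower in each, 4 and 5 of 10 sclerotome and cartilage genes were lower, and 2 and 1 of 9 blood and macrophage genes were lower, with 0 of 10 endothelial genes called by limma in either (0 and 1 at an unadjusted p under 0.05, and 0 and 1 called by the local pooled error test). That test called more genes in 2 of these lists, with 8 and 8 of limb ectoderm and 7 and 6 of blood and macrophage. For sclerotome and cartilage it called 5 and 4. At an unadjusted p under 0.05 were 9 and 9 limb ectoderm, 2 and 4 blood and macrophage, and 6 and 6 sclerotome and cartilage genes. Between PAX3-FKHR GFP+ and control GFP+ the markers called were Pax7, higher, Pax3, lower, and Fgf8, higher. Control GFP+ replicate 3 stood apart, with a limma array weight of 0.236 against 0.604 to 2.69 for the other 8 arrays. All arrays are of bulk RNA, so that fewer cells of a type and less RNA per cell cannot be told apart.

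Fgfr4 and Sulf1 were higher in PAX3-FKHR GFP+ than in GFP-, Fgfr2 and Fgfr3 were lower, and neither Fgfr1 nor Sulf2 was called. That makes 4 of 6 genes called by their main probe set, the one with the highest mean over the 9 arrays, where 6.69% of all genes were called in this comparison, 3.9% higher and 2.79% lower. In control GFP+ against GFP-, Sulf1 was higher and Fgfr2 lower, 2 of 6 genes, where 4.72% of all genes were called, 2.79% higher and 1.93% lower. Between PAX3-FKHR GFP+ and control GFP+ none of the 6 was called, where 0.813% of all genes were (0.61% higher and 0.203% lower), although 2, Fgfr4 and Sulf1, had an unadjusted p under 0.05. The local pooled error test, the test the study names, was rebuilt here from its description and run without the study's filter on absent calls. Its counts are therefore not those of the study. For somites, limb buds or both, the study lists Fgfr4 and Sulf1 as higher with PAX3-FKHR and Fgfr3 as lower. The rebuilt test called 4 genes for PAX3-FKHR GFP+ minus GFP-, 2 for control GFP+ minus GFP- and 0 for PAX3-FKHR GFP+ minus control GFP+. These were not the same genes as with limma. It called Fgfr1 and not Fgfr3 in the first comparison, and Fgfr4 and not Sulf1 in the second. Of the 45037 probe sets it called 1367 higher and 2268 lower, 662 higher and 1763 lower, and 268 higher and 92 lower, with the comparisons in this order. The median log2 fold change of the 6 was -0.32, -0.13 and 0.04 in this order, beside 0.05, 0.08 and -0.03 over all genes. The 3 comparisons share arrays in pairs and are not independent of one another.

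**Figure D1:**
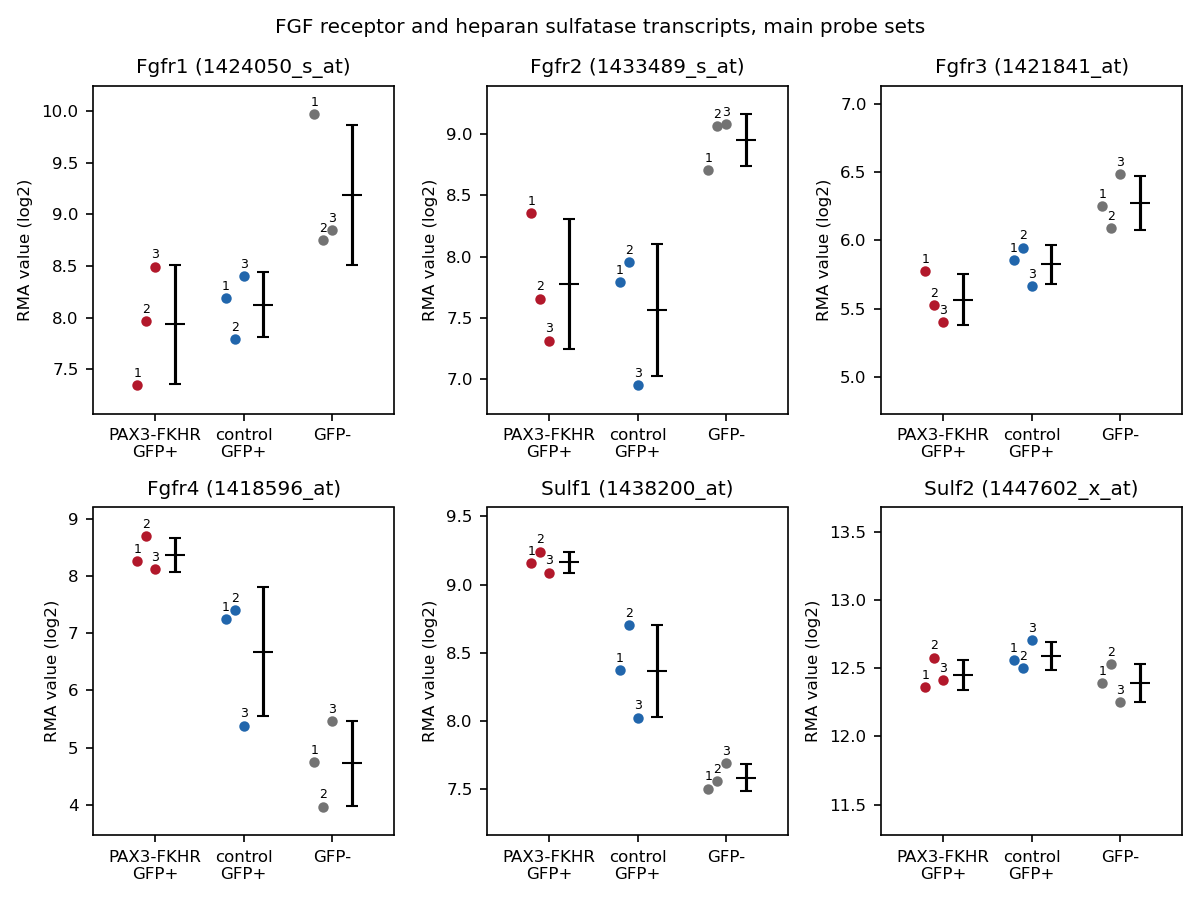
RMA values (log2) of the main probe set of each gene on the 9 arrays, with the replicate number over each point and the mean and SD (n = 3) as a bar beside it; each panel has its own axis range. Fgfr4 and Sulf1 are highest in PAX3-FKHR GFP+ and lowest in GFP-, except that control GFP+ replicate 3 lies at 5.38 for Fgfr4, below GFP- replicate 3 at 5.46, while Fgfr1, Fgfr2 and Fgfr3 are highest in GFP- and Sulf2 is nearly level.

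Fgfr4, the receptor of embryonic muscle progenitors, had the largest difference of the 6 genes. Its main probe set read 8.27, 8.70 and 8.13 in PAX3-FKHR GFP+, 7.24, 7.41 and 5.38 in control GFP+, and 4.74, 3.97 and 5.46 in GFP-. The PAX3-FKHR GFP+ arrays lay above all the others, and control GFP+ and GFP- overlapped through control GFP+ replicate 3 and GFP- replicate 3. The means were 8.37 ± 0.30 in PAX3-FKHR GFP+, 6.68 ± 1.12 in control GFP+ and 4.72 ± 0.75 in GFP- (SD, n = 3 each). Fgfr4 was thus 12.5-fold higher in PAX3-FKHR GFP+ than in GFP- (log2 fold change 3.64, SE 0.51, limma adjusted p = 0.00199). This call held whichever of the 6 arrays was left out.

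Between PAX3-FKHR GFP+ and control GFP+ the Fgfr4 difference was 1.69 (SE 0.51, 95% interval 0.55 to 2.82), with no overlap of the groups, and it was not called (limma adjusted p = 0.372). The groups did not overlap for Fgfr4 and Sulf1, 2 of the 6 genes, where this held for 14.3% of all genes in this comparison. Arrays of the same replicate number, which deviated together in these 2 groups, differed by 1.02, 1.30 and 2.74. With the replicate number as a block and only these 6 arrays in the fit, the same difference had an SE of 0.30 and passed the threshold (limma adjusted p = 0.0496), and with the block in a fit of all 9 arrays it did not (adjusted p = 0.463). Without control GFP+ replicate 3 the difference was 1.04. That array also had the lowest mean level of its group for every marker list but limb mesenchyme. For blood and macrophage genes this was 5.75, against 6.82 and 7.55 in control GFP+ replicates 1 and 2, for neural crest and glia 6.30 against 7.02 and 7.44, and for muscle progenitors 8.55 against 8.70 and 8.69. Its part in the result was not tested.

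In control GFP+ minus GFP-, Fgfr4 had a log2 fold change of 1.95 (SE 0.51, 95% interval 0.82 to 3.09) and missed the threshold narrowly (limma adjusted p = 0.0504). It was called without control GFP+ replicate 3, at 2.60 (adjusted p = 0.0049), and without GFP- replicate 3, at 2.32 (adjusted p = 0.0486). In GFP- replicate 3, the highest of its group for Fgfr4, the muscle progenitor list averaged 5.32, against 4.92 and 4.90 in GFP- replicates 1 and 2, and 8.55 to 8.88 over the 6 GFP-positive arrays. Its part in the Fgfr4 value was not tested.

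Of the 5 Fgfr4 probe sets, 4 were called higher in PAX3-FKHR GFP+ than in GFP-, and all 5 were above 0 in that difference. Another of them, 1427777_x_at, read 5.80, 6.06 and 5.72 in PAX3-FKHR GFP+, 5.12, 5.30 and 4.82 in control GFP+, and 4.87, 4.83 and 4.72 in GFP-. Here PAX3-FKHR GFP+ stood clear of both other groups, which overlapped. It was 1.05 higher in PAX3-FKHR GFP+ than in GFP- (limma adjusted p = 0.0021), and its difference of 0.78 from control GFP+ fell just short of a call (adjusted p = 0.0593). The others called in PAX3-FKHR GFP+ minus GFP- were 1427846_x_at at 0.60 and 1427776_a_at at 0.90, while 1427845_at differed by 0.09 and overlapped in all 3 groups. 2 pairs of these probe sets were designed on 1 source sequence each, and those ending in x may bind related transcripts, so they are not independent measurements. With the mean of all 5 probe sets in place of the main one, Fgfr4 was higher by 1.26 in PAX3-FKHR GFP+ than in GFP- (limma adjusted p = 0.0010), and differed by 0.66 for PAX3-FKHR GFP+ minus control GFP+ (adjusted p = 0.132) and 0.59 for control GFP+ minus GFP- (adjusted p = 0.0674), so that the size of the Fgfr4 difference rests on its main probe set.

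Sulf1, which trims heparan sulfate outside the cell, was the second gene that was higher in PAX3-FKHR GFP+ than in GFP-. It read 9.16, 9.24 and 9.09 in PAX3-FKHR GFP+, 8.38, 8.70 and 8.03 in control GFP+, and 7.50, 7.56 and 7.69 in GFP-. The 3 groups did not overlap anywhere, with PAX3-FKHR GFP+ highest and GFP- lowest. In PAX3-FKHR GFP+ it was 2.98-fold higher than in GFP- (log2 fold change 1.58, SE 0.17, limma adjusted p = 0.000456), a call that held whichever of the 6 arrays was left out. In control GFP+ minus GFP- the log2 fold change was 0.78 (SE 0.17, 95% interval 0.40 to 1.17, adjusted p = 0.0250), and this call was lost when any of the 6 arrays but control GFP+ replicate 3 was left out, with adjusted p between 0.0502 and 0.0835.

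The step in Sulf1 between PAX3-FKHR GFP+ and control GFP+ was 0.79 (SE 0.17, 95% interval 0.41 to 1.18), and was not called (limma adjusted p = 0.113). Arrays of the same replicate number differed by 0.78, 0.54 and 1.06. Fitted on these 6 arrays with replicate number as a blocking term, it had an adjusted p of 0.0709, and with limma array weights, which count control GFP+ replicate 3 for less, the difference was 0.73 and was called (adjusted p = 0.0199). A second Sulf1 probe set, 1436319_at, read 9.05, 9.16 and 8.77 in PAX3-FKHR GFP+, 7.94, 8.62 and 6.87 in control GFP+, and 6.57, 6.91 and 7.43 in GFP-. It had the same order of means, with control GFP+ and GFP- overlapping, and was called for PAX3-FKHR GFP+ minus GFP- (2.02, adjusted p = 0.0098) but not for PAX3-FKHR GFP+ minus control GFP+ (1.18, adjusted p = 0.438, called by the local pooled error test with an adjusted p of 0.0137). The third, 1446416_at, lay between 2.84 and 3.19 on all arrays, among the dimmest of the array, and its groups overlapped. Fgfr4 and Sulf1 are also in the lists of forelimb genes that the study chose on these same arrays, so their direction here is not independent evidence.

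Fgfr2 went the other way. This receptor, whose splice forms serve limb ectoderm and mesenchyme, read 8.35, 7.66 and 7.32 in PAX3-FKHR GFP+, 7.79, 7.95 and 6.95 in control GFP+, and 8.71, 9.06 and 9.08 in GFP-. Every GFP- array lay above every GFP-positive array, and the GFP-positive groups overlapped. Fgfr2 was lower in PAX3-FKHR GFP+ than in GFP- by a log2 fold change of -1.17 (SE 0.30, limma adjusted p = 0.0445), which is 0.443 of the GFP- level, and in control GFP+ than in GFP- by -1.38 (SE 0.30, adjusted p = 0.0242), which is 0.383 of the GFP- level.

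The Fgfr2 calls were close to the threshold. For PAX3-FKHR GFP+ minus GFP- the call was lost when any of the 6 arrays but PAX3-FKHR GFP+ replicate 1 was left out, with adjusted p up to 0.157, and for control GFP+ minus GFP- it was lost without any 1 of the 3 GFP- arrays (adjusted p between 0.0506 and 0.0822). Between PAX3-FKHR GFP+ and control GFP+ Fgfr2 differed by 0.21 (SE 0.30, 95% interval -0.47 to 0.89, adjusted p = 0.904), an interval wide enough to hold a change of more than the 0.5 used for a call in the upward direction. Both other Fgfr2 probe sets were highest in GFP- too, without overlap with either GFP-positive group. Of these, 1420847_a_at was called for control GFP+ minus GFP- (-0.79, adjusted p = 0.0335) and not for PAX3-FKHR GFP+ minus GFP- (-0.62, adjusted p = 0.0814), and 1443211_at was called in neither (-0.37 for control GFP+ minus GFP- and -0.29 for PAX3-FKHR GFP+ minus GFP-). Which splice form each probe set reads was not analysed here.

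Fgfr1, the main receptor of limb mesenchyme, read 7.35, 7.97 and 8.49 in PAX3-FKHR GFP+, 8.19, 7.79 and 8.40 in control GFP+, and 9.97, 8.75 and 8.85 in GFP-. Both GFP-positive groups lay wholly below GFP-, and they overlapped each other. The differences were -1.25 for PAX3-FKHR GFP+ minus GFP- (SE 0.36, 95% interval -2.04 to -0.46, limma adjusted p = 0.0643) and -1.06 for control GFP+ minus GFP- (95% interval -1.85 to -0.27, adjusted p = 0.117), so neither was called. On each of the 3 Fgfr1 probe sets both GFP-positive groups lay below GFP- without overlap. Over the 6 genes, PAX3-FKHR GFP+ and GFP- did not overlap for 5, where this held for 27.9% of all genes, and control GFP+ and GFP- did not overlap for 4, where it held for 24.1%.

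GFP- replicate 1 was the highest array on all 3 Fgfr1 probe sets, at 9.97, 7.67 and 6.54. Without it the main probe set differed by -0.86 for PAX3-FKHR GFP+ minus GFP- and -0.67 for control GFP+ minus GFP-. The same array had the lowest mean of its group for the blood and macrophage list, 7.02 against 8.44 and 8.83 in GFP- replicates 2 and 3, for limb ectoderm, 5.76 against 6.43 and 6.90, and for endothelium, 5.02 against 5.62 and 6.09. It was also lowest, by less, for both neural lists, and highest for sclerotome and cartilage, 6.90 against 6.67 and 6.55. The part of these cells in the Fgfr1 values was not tested. Between PAX3-FKHR GFP+ and control GFP+ Fgfr1 differed by -0.19 (SE 0.36, 95% interval -0.98 to 0.60, adjusted p = 0.927).

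Fgfr3, the receptor known from cartilage, had smaller differences. It read 5.77, 5.52 and 5.40 in PAX3-FKHR GFP+, 5.86, 5.95 and 5.67 in control GFP+, and 6.25, 6.09 and 6.48 in GFP-. GFP- lay above both GFP-positive groups without overlap, and those 2 groups overlapped. Fgfr3 was lower in PAX3-FKHR GFP+ than in GFP- by a log2 fold change of -0.71 (SE 0.15, 95% interval -1.05 to -0.36, limma adjusted p = 0.0210), 0.612 of the GFP- level.

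That Fgfr3 call was lost on leaving out replicate 2 or 3 of PAX3-FKHR GFP+, or replicate 1 or 3 of GFP-, with adjusted p between 0.0629 and 0.0887. For control GFP+ minus GFP- the difference was -0.45 (95% interval -0.79 to -0.11, adjusted p = 0.123) and for PAX3-FKHR GFP+ minus control GFP+ -0.26 (95% interval -0.60 to 0.09, adjusted p = 0.779). The study lists Fgfr3 as lower with PAX3-FKHR in somites, limb buds or both, and on these forelimb arrays that decrease was not called. Arrays of the same replicate number were lower in PAX3-FKHR GFP+ than in control GFP+ in all 3 pairs, by -0.08, -0.42 and -0.27. The second Fgfr3 probe set, 1425796_a_at, lay between 4.0 and 4.45 on all arrays, its groups overlapped, and its difference for PAX3-FKHR GFP+ minus GFP- was 0.15 (adjusted p = 0.518), so that only 1 of 2 Fgfr3 probe sets shows the decrease.

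Sulf2, the second extracellular sulfatase, was nearly level. Its main probe set read 12.36, 12.58 and 12.41 in PAX3-FKHR GFP+, 12.56, 12.50 and 12.70 in control GFP+, and 12.39, 12.53 and 12.25 in GFP-. All 3 groups overlapped, at a signal near the top of the array's range (percentile 99.7). The differences were -0.14 for PAX3-FKHR GFP+ minus control GFP+ (95% interval -0.36 to 0.08, limma adjusted p = 0.807), 0.20 for control GFP+ minus GFP- (95% interval -0.02 to 0.42, adjusted p = 0.279) and 0.06 for PAX3-FKHR GFP+ minus GFP- (95% interval -0.16 to 0.28, adjusted p = 0.798). All 3 intervals lie within 0.5 of 0 in either direction.

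A probe set near the top of the array's range can be compressed, and the main set of Sulf2 also ends in x, so its other sets were looked at as well. On 1430388_a_at Sulf2 read 9.08, 9.24 and 9.11 in PAX3-FKHR GFP+, 9.62, 9.54 and 9.51 in control GFP+, and 9.43, 9.59 and 9.43 in GFP-. PAX3-FKHR GFP+ lay below both other groups, by -0.42 against control GFP+ (SE 0.12, limma adjusted p = 0.292) and -0.34 against GFP- (adjusted p = 0.121), and neither was called. The pairs of the same replicate number differed by -0.55, -0.30 and -0.41 between PAX3-FKHR GFP+ and control GFP+. The third Sulf2 probe set, 1442408_at, differed by -0.14 in that comparison, and its groups overlapped.

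**Figure D2:**
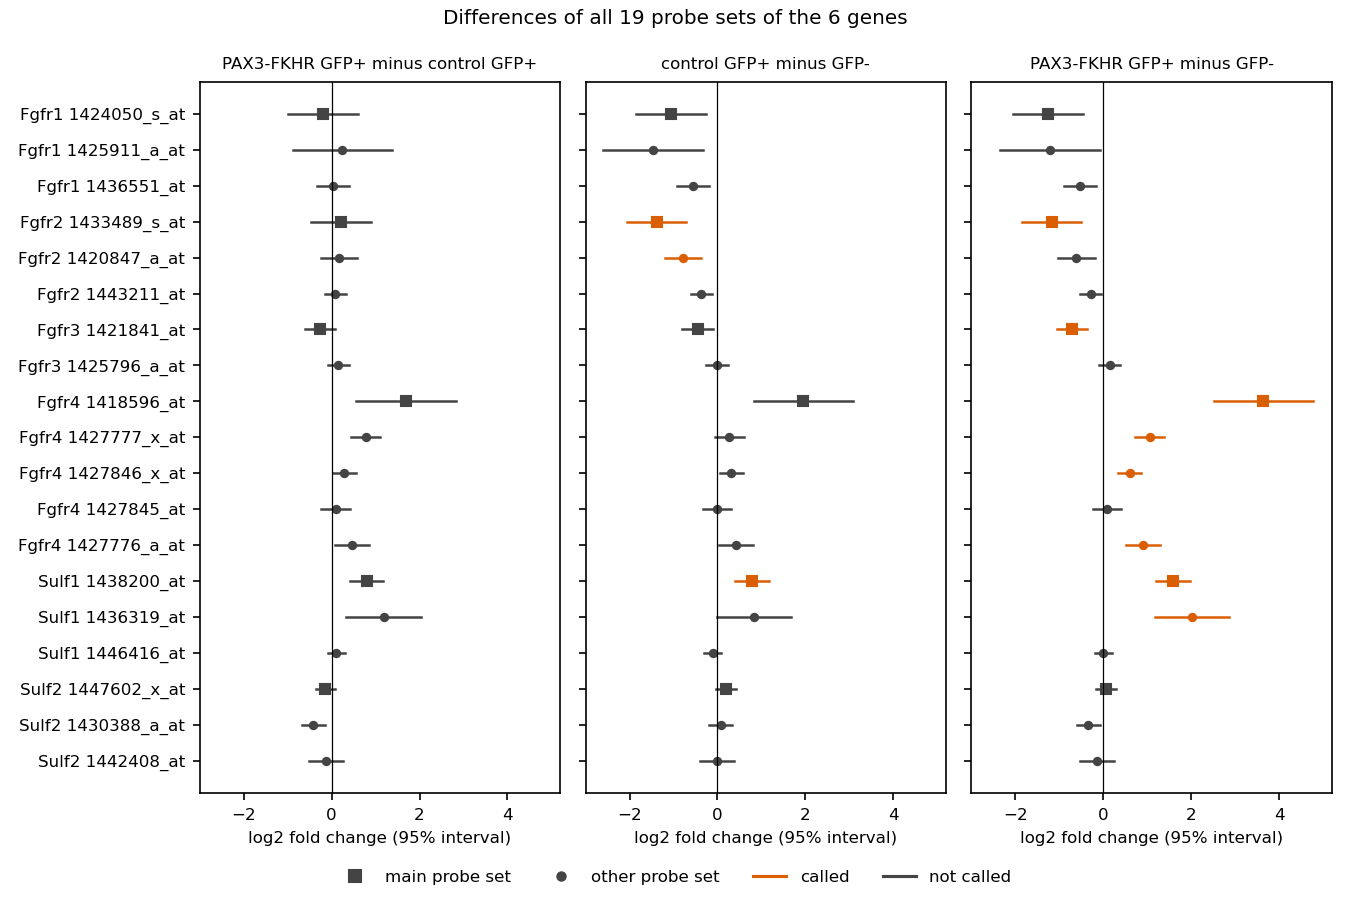
Log2 fold changes with 95% intervals (limma, n = 3 arrays a group) of all 19 probe sets in the 3 comparisons; squares are main probe sets, circles the others, and orange marks a call. No probe set is called for PAX3-FKHR GFP+ minus control GFP+; for PAX3-FKHR GFP+ minus GFP-, 4 Fgfr4 and 2 Sulf1 probe sets are called higher and 1 each of Fgfr2 and Fgfr3 lower.

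Over all 19 probe sets, 6 were called higher and 2 lower in PAX3-FKHR GFP+ than in GFP-, where 6.8% of all probe sets were called, 2.8% higher and 4% lower. In control GFP+ against GFP- 1 was called higher and 2 lower, where 5.84% were called, 1.84% higher and 4.01% lower. In PAX3-FKHR GFP+ against control GFP+ 0 were called by limma, where 0.537% of all probe sets were called, 0.395% higher and 0.142% lower. The local pooled error test called 1, of Sulf1, where it called 268 higher and 92 lower of the 45037 probe sets. At an unadjusted p under 0.05 were 7. The share of all probe sets at that p is not given here, for this count or for the others at that p.

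Among the FGF ligands, Fgf5 was the only one called in all 3 comparisons. It averaged 7.16 ± 0.46 in PAX3-FKHR GFP+, 4.86 ± 0.40 in control GFP+ and 2.91 ± 0.37 in GFP- (SD, n = 3 each). It was called higher in every comparison, by 2.30 for PAX3-FKHR GFP+ minus control GFP+ (limma adjusted p = 0.0051), 4.25 for PAX3-FKHR GFP+ minus GFP- (adjusted p = 1.36e-05) and 1.95 for control GFP+ minus GFP- (adjusted p = 0.0029). Its values in GFP-, 2.58, 2.83 and 3.32, were near the bottom of the array's range, where lower levels cannot be told apart, so the differences from GFP- may be understated. Fgf8, a ligand of the apical ectodermal ridge, averaged 5.74 ± 0.22 in PAX3-FKHR GFP+, 4.60 ± 0.05 in control GFP+ and 5.39 ± 0.20 in GFP-. It was higher in PAX3-FKHR GFP+ than in control GFP+ by 1.14 (adjusted p = 0.0071) and its difference for control GFP+ minus GFP- was -0.79 (adjusted p = 0.0112), and it was the only 1 of 12 limb ectoderm genes called between PAX3-FKHR GFP+ and control GFP+. Fgf9 was higher in both GFP-positive groups than in GFP-, by 1.42 in PAX3-FKHR GFP+ and 2.05 in control GFP+, and Fgf18 was lower in PAX3-FKHR GFP+ than in GFP- by -1.03. Of the 18 ligands measured, 2 were called higher and 0 lower for PAX3-FKHR GFP+ minus control GFP+, and 2 higher and 1 lower in each of the other comparisons, and the list's medians were -0.09 for PAX3-FKHR GFP+ minus control GFP+, 0.05 for PAX3-FKHR GFP+ minus GFP- and 0.12 for control GFP+ minus GFP-. Over all genes 0.813%, 6.69% and 4.72% were called in this order, with medians of -0.03, 0.05 and 0.08. These shares and medians are those to set beside every list below. All these ligand calls held whichever of the 6 arrays of the comparison was left out.

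Of 10 receptor-like and partner proteins, Flrt1, a transmembrane protein of the family that binds FGF receptors, was higher in PAX3-FKHR GFP+ than in control GFP+ by 1.66 (limma adjusted p = 0.0229) and than in GFP- by 2.26 (adjusted p = 6.62e-04). Its relative Flrt3 was lower in PAX3-FKHR GFP+ than in control GFP+ by -0.77 (adjusted p = 0.0381) and higher in control GFP+ than in GFP- by 0.70 (adjusted p = 0.0137). Ncam1, an adhesion molecule that can bind FGF receptors, was higher by 1.67 in PAX3-FKHR GFP+ than in GFP- and by 0.91 in control GFP+ than in GFP-. The Flrt1 call for PAX3-FKHR GFP+ minus control GFP+ was lost on leaving out replicate 2 or 3 of PAX3-FKHR GFP+, or replicate 1 or 3 of control GFP+ (adjusted p between 0.0563 and 0.122). The Flrt3 call was lost for PAX3-FKHR GFP+ minus control GFP+ without any array but control GFP+ replicate 3 (0.0830 to 0.183), and also with the replicate block on 6 arrays (0.0549) and on all 9 (0.0810), with a further quantile normalization (0.0717), with the 6 arrays alone (0.113), in the local pooled error test (0.166) and at a threshold of 1. It was lost for control GFP+ minus GFP- without replicate 2 of either group (0.0552 to 0.0586). The Ncam1 calls and the Flrt1 call against GFP- held whichever of the 6 arrays was left out. For control GFP+ minus GFP- the replicate block on 6 arrays and a threshold of 1 removed the Ncam1 and Flrt3 calls. The mean of all probe sets also removed that Ncam1 call, and the local pooled error test that Flrt3 call. The Flrt1 call for PAX3-FKHR GFP+ minus control GFP+ was lost with the 6 arrays alone. This list's medians were -0.09 for PAX3-FKHR GFP+ minus control GFP+, 0.08 for PAX3-FKHR GFP+ minus GFP- and 0.22 for control GFP+ minus GFP-.

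Of 11 feedback genes and targets of the pathway, limma called 3 lower in control GFP+ than in GFP- and 0 higher. In that comparison 5 of the 11 had an unadjusted p under 0.05, and the local pooled error test called 1. For PAX3-FKHR GFP+ minus GFP- limma called 0, with 2 at an unadjusted p under 0.05 and 0 called by the local pooled error test. Dusp6, a MAP kinase phosphatase, averaged 9.44 ± 0.15 in PAX3-FKHR GFP+, 8.64 ± 0.57 in control GFP+ and 9.93 ± 0.19 in GFP- (SD, n = 3 each). Its difference for control GFP+ minus GFP- was -1.29 (limma adjusted p = 0.0135), not called without GFP- replicate 3 (adjusted p = 0.0530). Spry1, a Sprouty inhibitor, was lower by -1.13 (adjusted p = 0.0310) and Il17rd, a membrane inhibitor of FGF signalling, by -0.69 (adjusted p = 0.0182), where the Spry1 call was lost without any 1 of the GFP- arrays (0.0809 to 0.0945) and the Il17rd call without replicate 1 of control GFP+, or replicate 2 or 3 of GFP- (0.0580 to 0.0650). Both calls were also lost in the local pooled error test, with the 6 arrays alone and with the replicate block on them. The Il17rd call was lost too at a threshold of 1 and with the mean of its probe sets, and the Dusp6 call with the replicate block on 6 arrays. Between PAX3-FKHR GFP+ and control GFP+ none of the 11 was called, with 2 at an unadjusted p under 0.05 and 1 called by the local pooled error test, and Spry1 differed by 1.35 (adjusted p = 0.0622). Of the genes on this list, the study gives Spry1, Spry4 and Spred1 as higher with PAX3-FKHR, in somites, limb buds or both. The medians of this list were 0.10 for PAX3-FKHR GFP+ minus control GFP+, 0.06 for PAX3-FKHR GFP+ minus GFP- and -0.03 for control GFP+ minus GFP-. Of the 9 receptor adaptors measured, Gab1, a docking protein, was the only 1 called, at 0.55 in PAX3-FKHR GFP+ minus GFP- (adjusted p = 0.0355), a call lost without any 1 array but PAX3-FKHR GFP+ replicate 3 (0.0678 to 0.166), and the list's medians were 0.12, 0.14 and 0.14 in the same order.

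Heparan sulfate, the substrate of the sulfatases, is carried by core proteins of the syndecan and glypican families and of the matrix. Of the 14 measured, 5 were lower in PAX3-FKHR GFP+ than in GFP- and 5 lower in control GFP+ than in GFP-, 0 were higher, and 0 were called between PAX3-FKHR GFP+ and control GFP+, where 5 had an unadjusted p under 0.05. Over all genes 2.79% were called lower in PAX3-FKHR GFP+ than in GFP- and 1.93% in control GFP+ than in GFP-. Gpc3, a glypican of limb mesenchyme, averaged 10.47 ± 0.03 in PAX3-FKHR GFP+, 10.42 ± 0.39 in control GFP+ and 11.65 ± 0.18 in GFP- (SD, n = 3 each). It was lower by -1.18 in PAX3-FKHR GFP+ than in GFP- (limma adjusted p = 0.0029) and by -1.23 in control GFP+ than in GFP- (adjusted p = 0.0032), and both calls held whichever array was left out. Gpc2 was lower by -1.66 and -1.68 in the same 2 comparisons, Sdc1, a syndecan, by -0.91 in PAX3-FKHR GFP+, and Gpc6 by -1.09 in control GFP+. Also lower than in GFP- were Sdc2 (-0.72) and Agrn (-0.58) in PAX3-FKHR GFP+ and Gpc4 (-1.0) and Sdc2 (-0.74) in control GFP+, genes named after their values were seen to complete the counts. Apart from those of Gpc3, each of these calls was lost on leaving out any 1 of at least 2 of the 6 arrays, with adjusted p up to 0.144. In PAX3-FKHR GFP+ minus GFP- these arrays were PAX3-FKHR GFP+ replicates 2 and 3 for Gpc2, PAX3-FKHR GFP+ replicate 2 and GFP- replicates 1 and 2 for Sdc1, all but PAX3-FKHR GFP+ replicate 1 for Sdc2, and all 6 for Agrn. In control GFP+ minus GFP- they were the 3 control GFP+ arrays for Gpc2, GFP- replicates 1 and 3 for Gpc6, replicates 1 and 3 of control GFP+ and 2 and 3 of GFP- for Gpc4, and all but control GFP+ replicate 3 for Sdc2. For control GFP+ minus GFP- the local pooled error test called 2 of the 14, and the Gpc4, Gpc6 and Sdc2 calls were lost in it. With the replicate block on 6 arrays these calls and that of Gpc2 were lost. For PAX3-FKHR GFP+ minus GFP- that test called 5, without Agrn, and the block on 6 arrays removed the Sdc2 and Agrn calls. The medians of the list were -0.55 for PAX3-FKHR GFP+ minus GFP-, -0.38 for control GFP+ minus GFP- and 0.03 for PAX3-FKHR GFP+ minus control GFP+. These core proteins and the 3 receptors highest in GFP-, Fgfr1, Fgfr2 and Fgfr3, had the direction of the limb mesenchyme list, whose mean level was 6.98 to 7.52 in PAX3-FKHR GFP+, 7.31 to 7.44 in control GFP+ and 9.20 to 9.51 in GFP-. The limb ectoderm, blood and macrophage, and sclerotome and cartilage lists had the same direction. Their medians against GFP- were -1.21, -1.24 and -0.84 in PAX3-FKHR GFP+, and -1.12, -1.22 and -0.73 in control GFP+. The endothelium list (0.03 and 0.26) and both neural lists had medians above 0. The part of the cell mixture in the core protein and receptor values was not tested.

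Few of the enzymes that build, modify and break down heparan sulfate were called. Of 10 chain synthesis genes, Fam20b, a kinase of the linker sugar, was the only 1 called, at 0.60 in PAX3-FKHR GFP+ minus GFP- (limma adjusted p = 0.0406). Of 14 sulfation genes, Hs6st3, a sulfotransferase for the 6-O position that the sulfatases act on, was higher in control GFP+ than in GFP- by 0.54 (adjusted p = 0.0201), and Ndst2, an N-deacetylase and N-sulfotransferase, was lower in PAX3-FKHR GFP+ than in GFP- by -0.53 (adjusted p = 0.0261). The Fam20b call was lost without replicate 1 or 2 of either group, the Hs6st3 call without replicate 1 of control GFP+, or replicate 1 or 2 of GFP-, and the Ndst2 call without any 1 array but GFP- replicate 3, with adjusted p up to 0.168. Of 10 breakdown genes, among them the lysosomal sulfatases, none was called in any comparison by limma or by the local pooled error test, with 1 at an unadjusted p under 0.05 for PAX3-FKHR GFP+ minus control GFP+ and 2 in each of the others. Their medians for PAX3-FKHR GFP+ minus GFP- were -0.11 for chain synthesis, 0.05 for sulfation and -0.19 for breakdown. Over the 8 lists together, 96 genes were measured, of which 3 were called higher and 1 lower for PAX3-FKHR GFP+ minus control GFP+, 6 higher and 7 lower for PAX3-FKHR GFP+ minus GFP-, and 5 higher and 9 lower for control GFP+ minus GFP-. Over all genes the shares called, higher or lower, were 0.813%, 6.69% and 4.72% in this order. Etv1, Frs2, Xylt1, Ndst1 and Hs3st5 were not analysed here.

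**Figure D3:**
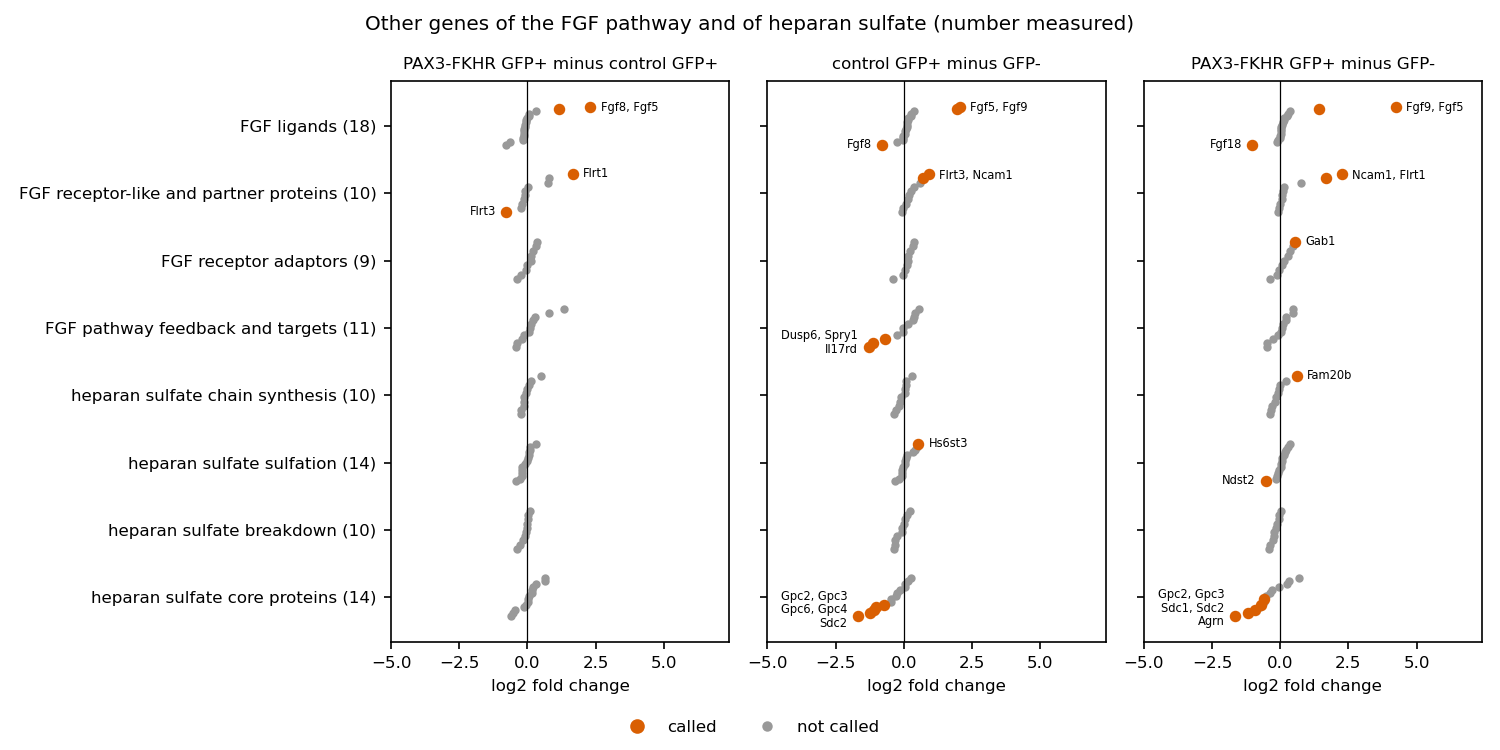
Log2 fold changes of the main probe sets of 96 genes of the FGF pathway and of heparan sulfate in 8 lists, for the 3 comparisons (limma, n = 3 arrays a group); orange marks a call and the called genes are named. Fgf5 lies farthest to the right in PAX3-FKHR GFP+ minus GFP-, at 4.25, and the called core proteins all lie below 0 in the comparisons with GFP-.

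For the 4 genes called in at least 1 comparison, the genes with the most similar pattern over the 9 arrays were those with the smallest root mean square difference after each gene's mean was subtracted, among 18193 genes. For Fgfr4 these were Rbm24 (0.29), Lrrn1 (0.33) and Erbb3 (0.37), and Erbb3 is also on the neural crest and glia list. For Sulf1 they were Stk26 (0.10), Nedd4l (0.13) and Shisa2 (0.14). For Fgfr2 they were Tmem178 (0.20), Pdgfra (0.22) and Ptn (0.22), and Pdgfra is a receptor of mesenchymal cells. For Fgfr3 they were Slc16a7, Gm17501 and 4933439C10Rik (0.11 to 0.12). These are descriptions over 9 arrays in 3 groups, and the distances are smaller for genes that vary less.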

How the data were processed

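Cells of E10.5 forelimb buds were sorted by GFP, and their RNA was amplified in a two-cycle protocol and hybridised to 9 Affymetrix Mouse430_2 arrays, 3 per group. The deposited log2 values were made by the authors with RMA, which subtracts background, quantile-normalizes the arrays and combines each set's probes into one value; its version is not given in the sources used here. The filter on absent calls that the study describes was not repeated. Of the probe sets tested, 64 array controls having been set aside, 34945 had 1 gene symbol, 932 several and 9160 none.

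A single linear model of the 3 groups (limma 3.58.1, R 4.3.3, eBayes with trend) gave the 3 comparisons as contrasts. The fit was tested on simulated data. Named genes are the 6 genes, up to 3 called genes with the smallest adjusted p per pathway list and comparison, and the 3 nearest patterns of each called gene. The members and lists were chosen with earlier results of these data known. Groups and replicate numbers come from the sample titles. Deviations from the group means correlated between equal numbers of PAX3-FKHR GFP+ and control GFP+ (0.164, 0.472 and 0.287) and always more than between unequal ones. Differences between arrays of equal number are therefore given for these 2 groups, while the GFP- numbers did not pair in this way. The main fit ignored the replicate number, which entered as a block only in alternative fits. No columns were identical. The study speaks of biological replicates, but equal numbers are not said to share a day or litter.

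The alternatives were median centring, a further quantile normalization, no trend, array weights, the 6 arrays of a comparison alone, the replicate number as a block, a filter at the median value, other fold change thresholds, the local pooled error test rebuilt from its description with 100 bins, the mean of a gene's probe sets, and each array left out in turn. Leaving out probe sets ending in _x_at or _s_at was added after the data had been seen.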

Additional observations from a re-analysis of the deposited data

How the results depend on the processing

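Each of the 18 differences of the 6 genes was recomputed in 13 alternatives and with each of 6 arrays left out, which gave 342 values. Of these, 287 kept direction and call, 31 lost the call, 13 gained one and 11 changed direction. Most of the 287 were differences not called in the main fit that stayed so. Only called differences could lose a call, and these were 2 higher and 2 lower for PAX3-FKHR GFP+ minus GFP- and 1 higher and 1 lower for control GFP+ minus GFP-. Every change of direction was in a difference that was not called, and the cause was not tested. For PAX3-FKHR GFP+ minus control GFP+, Fgfr4 passed at 1.69 with the replicate block on 6 arrays and Sulf1 at 0.73 with array weights. The direction of Fgfr2 turned with array weights (-0.0024) and in the local pooled error test (-0.13), and that of Fgfr1 with the mean of all probe sets (0.029) and without the sets ending in _x_at or _s_at (0.25). For control GFP+ minus GFP-, Fgfr4 passed with median centring (1.96), quantile normalization (2.00), array weights (2.72), the filter at the median (1.95), the local pooled error test (2.50) and without the sets ending in _x_at or _s_at (1.95). Sulf1 lost its call with the 6 arrays alone (0.78), the replicate block on them (0.78), a threshold of 1 (0.78), the local pooled error test (0.82) and the mean of all probe sets (0.51), and Fgfr2 with the replicate block on 6 arrays (-1.38). For PAX3-FKHR GFP+ minus GFP-, Fgfr2 lost its call with quantile normalization (-1.15), no trend (-1.17), the replicate block on 6 arrays (-1.17) and without the sets ending in _x_at or _s_at (-0.62). Fgfr3 lost its call with the replicate block on 6 arrays (-0.71), a threshold of 1 (-0.71), the local pooled error test (-0.73) and the mean of all probe sets (-0.28). Fgfr1 gained one with array weights (-1.18), the filter at the median (-1.25) and the local pooled error test (-0.88), and Sulf2 turned with the mean of all probe sets (-0.14) and without the sets ending in _x_at or _s_at (-0.34). The replicate block on all 9 arrays changed no call of the 6 genes.

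Leaving out 1 array, the values ranged from -0.47 to 0.10 for Fgfr1 and from -0.10 to 0.44 for Fgfr2 in PAX3-FKHR GFP+ minus control GFP+, where Fgfr1 (0.10) and Fgfr2 (-0.08) turned without PAX3-FKHR GFP+ replicate 1 and Fgfr2 without control GFP+ replicate 3. In control GFP+ minus GFP- they ranged from -1.58 to -1.08 for Fgfr2, from 1.58 to 2.60 for Fgfr4 and from 0.62 to 0.95 for Sulf1. In PAX3-FKHR GFP+ minus GFP- they ranged from -1.46 to -0.94 for Fgfr2, from -0.81 to -0.60 for Fgfr3 and from -0.0093 to 0.13 for Sulf2, which turned without PAX3-FKHR GFP+ replicate 2 (-0.0031) and without GFP- replicate 3. Over the alternatives on probe sets, those called higher and lower were 73 to 337 and 22 to 151 for PAX3-FKHR GFP+ minus control GFP+ (178 and 64 as reported), 642 to 1859 and 838 to 2625 for PAX3-FKHR GFP+ minus GFP- (1261 and 1800), and 368 to 1254 and 1070 to 2488 for control GFP+ minus GFP- (827 and 1804). With each gene's probe sets averaged, 149 and 66, 670 and 537, and 511 and 422 of the 18193 genes were called in the same order. Of 641 such values for the 34 differences of the genes named from the lists and of Pax3, 513 kept the call, 128 lost it and 0 turned. Dim probe sets, such as the third of Sulf1, limit what a small difference can show.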
